A study of Mus musculus with 2 samples.

Results

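Connexins are the subunits of gap junctions, and the 4 described here, Gja1, Gja4, Gja5 and Gjc1, are those named for arteries and lymphatic vessels. They were picked by symbol out of the 28692 genes in the deposited tables, and all 4 were found. Their RNA was followed through the endothelial types of the mouse mesentery, taken as cells with at least 2 unique molecular identifiers (UMIs, tags that count RNA molecules) of Cdh5, a cadherin of endothelial junctions. The libraries hold cells captured on CD31 and read in droplets from the RNA 3′ end. Of the pair, 1 library is a control and 1 is Flcn iΔEC, in which Cdh5-BAC-CreERT2 deletes a floxed Flcn in endothelial cells. Both come from C57BL/6 pups at P8 that were given 40 µg of 4-hydroxytamoxifen under the skin, first at P2, then at P3.5 and P5, and last at P6.5. Each library pools the cells of 3 mice, so mice cannot be told apart within it, and the Cre and Flcn alleles of the control mice are not stated for these libraries. No replicate exists, no test between the libraries was run, and the 95% intervals given here cover counting error only.

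Connexins assemble into rings in the cell membrane, and rings of neighbouring cells dock into channels that pass ions and small molecules from cell to cell. In arteries, Gja4 (the protein Cx37) and Gja5 (Cx40) are known for carrying signals along the endothelium, whereas Gja1 (Cx43) and Gja4 are known for their part in forming lymphatic valves. Gjc1 (Cx45) is best known from the developing heart and vascular smooth muscle.

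The control library had 6814 cells and 64639756 UMIs in all, with a median of 7283 per cell. In the Flcn iΔEC library there were 4459 cells and 60805779 UMIs, with a median of 8587. At least 2 Cdh5 UMIs were found in 566 control cells (8.31%; 13956271 UMIs, median 16127) and in 892 Flcn iΔEC cells (20%; 27210373 UMIs, median 24415). Of these, 22 control and 21 Flcn iΔEC cells sat exactly at 2 Cdh5 UMIs, while 164 and 137 cells with exactly 1 lay just outside. Both libraries share 6 cell barcodes, 0 of them among Cdh5-positive cells. The pools differ by sex: Xist had 9 counts in control and 63462 in Flcn iΔEC cells, and 4 Y-linked genes had 15535 and 17, so every difference between the libraries could be one of sex or of genotype, which cannot be told apart. Flcn itself had 143 counts, or 10.2 CPM (UMIs of a gene scaled so that all UMIs of each group sum alike), in the Cdh5-positive control cells and 265 counts, or 9.74 CPM, in those of Flcn iΔEC. That is a ratio of 0.95 (0.773 to 1.17). The deleted stretch of Flcn is not given, so whether the counted 3′ tags lie within it is unknown and the ratio does not check the deletion.

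The Cdh5-positive cells fell into 14 clusters, none of which was shaped by a connexin, since connexins and pannexins were kept out of the clustering. Each name rests on marker lists that hold no connexin. Large artery cells (56 control, 113 Flcn iΔEC) had 10 of 10 large artery markers at least 2-fold above the other cells. Small artery cells (125 and 44) had 8 of 8 markers of their type together with 10 of 12 capillary markers, so this class mixes the features of small arteries and capillaries. Capillary cells (29 and 17) had 9 of 12 markers of their type together with 6 of 8 small artery markers. These shares are equal, so the share alone does not decide the name, and this class mixes both features too. Venous cells (73 and 123) had only 4 of 10, and high endothelial venule cells (56 and 77), the vessels through which lymphocytes enter lymph nodes, had 7 of 8. This class also had 8 of 10 lymphocyte markers up, with all 10 found and sums of 4449 and 3079.8 CPM, led by Cd74 at 2465 and 1677 CPM, and their part in its connexin levels was not tested.

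Lymphatic cells formed 3 clusters, named here by their Lyve1. The Lyve1-high cells (14 and 21) stood at 2726 Lyve1 CPM, the Lyve1-mid cells (43 and 154) at 603 and the Lyve1-low cells (21 and 122) at 39.0, with 11, 12 and 9 of 12 lymphatic markers. The 3 clusters combined are called lymphatic cells (78 and 297). Lymph node sinus cells (18 and 43) stood apart with 6 of 10 markers, and proliferating cells (56 and 60) with 10 of 10. A cluster with 47 cells in the Flcn iΔEC library and 0 in control (63 and 22 when classes were set by a marker gate instead) had Prox1 at 506 CPM, beside the venous genes Nr2f2 at 333 and Ephb4 at 323 CPM, with Pdpn at 0.690 and Lyve1 at 4.14 CPM. Its leading genes were hemoglobin genes, and Aplnr at 5.52 CPM and Vwf at 191 CPM lay below the 346 and 1919 CPM of the venous cells. It is therefore called by its Prox1 and not by a vessel type. Another 75 control and 71 Flcn iΔEC cells, in clusters led by genes of blood cells, were left unnamed.

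The genes lie apart in the mouse genome (build GRCm38): Gja1 (ENSMUSG00000050953) at chr10:56377330-56402513 on the plus strand, Gja4 (ENSMUSG00000050234) at chr4:127311421-127314039 on the minus strand, Gja5 (ENSMUSG00000057123) at chr3:96904693-97077416 on the plus strand and Gjc1 (ENSMUSG00000034520) at chr11:102799579-102819700 on the minus strand. Gja1, Gja4 and Gjc1 overlap no other annotated gene, whereas the span of Gja5 overlaps 4, all on the opposite strand. Their coding sequence lies in 1 exon in every annotated transcript, except that Gja5 has a transcript with 2 coding exons. Promoter windows of 250 bases upstream of a transcript start in RefSeq, which for Gja5 lies inside the span given above, were at hand for 3 of the 4 (RefSeq, GRCm38.p6): chr3:97032152-97032401 on the plus strand for Gja5, chr4:127314040-127314289 on the minus strand for Gja4 and chr10:56377050-56377299 on the plus strand for Gja1. Gjc1 is missing from the table. They are shown because Gja5 and Gja1 divide between arterial and lymphatic cells, while Gja4 was found in both. Capitals mark CACCC, the core letters bound by KLF factors of flow-exposed endothelium, on either strand, so that GGGTG is the same motif read from the other strand.
Gja5: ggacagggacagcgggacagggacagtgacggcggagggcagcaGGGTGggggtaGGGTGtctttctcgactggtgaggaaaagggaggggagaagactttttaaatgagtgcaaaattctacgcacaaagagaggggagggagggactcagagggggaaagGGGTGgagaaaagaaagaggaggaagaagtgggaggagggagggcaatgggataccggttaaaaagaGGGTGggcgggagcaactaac
Gja4: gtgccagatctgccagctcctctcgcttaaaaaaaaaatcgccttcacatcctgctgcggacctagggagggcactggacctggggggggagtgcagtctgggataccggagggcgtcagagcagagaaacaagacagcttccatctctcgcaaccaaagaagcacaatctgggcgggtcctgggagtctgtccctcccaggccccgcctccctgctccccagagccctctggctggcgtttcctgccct
Gja1: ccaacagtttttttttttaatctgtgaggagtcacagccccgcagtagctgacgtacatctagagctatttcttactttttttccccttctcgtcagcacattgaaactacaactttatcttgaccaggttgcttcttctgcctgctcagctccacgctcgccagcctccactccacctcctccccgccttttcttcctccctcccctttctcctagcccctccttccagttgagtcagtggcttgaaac
The Gja5 window holds 4 matches to CACCC, and those of Gja4 and Gja1 hold 0. Among all 32817 promoter windows of this length, 52.0% have at least 1 match and 2.14% have at least 4. Other motifs, each searched on both strands, were ACAAT for SOX factors (1 match, in Gja4; in 27.7% of all windows), TGGGAA for RBPJ (0 matches; 21.6%), AGATAA for GATA factors (1 match, in Gja1; 9.99%), GGAAAA for NFAT (1 match each in Gja1 and Gja5; 20.4%) and CACGTG for the MiT/TFE family (0 matches; 6.02%). These matches describe letters only, and factor binding was not measured.

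Gja5 was an arterial gene in both libraries. In large artery cells the control level was 627 CPM (764 counts; 584 to 673), and the Flcn iΔEC level 378 CPM (1062 counts; 355 to 401). Small artery cells came next among the named classes, with 31.6 (23.3 to 41.8) and 32.5 CPM (21.4 to 47.2). Large artery cells exceeded them 19.9-fold (14.8 to 27.2) in control and 11.6-fold (7.95 to 17.7) in Flcn iΔEC. Venous and capillary cells of both libraries and the Prox1-positive cluster had 0 counts. At these depths that allows up to 1.96 and 0.937 CPM in venous cells of control and Flcn iΔEC, up to 10.4 and 14.1 CPM in capillary cells and up to 2.07 CPM in the Prox1-positive cluster. Large artery cells were therefore at least 319-fold above venous cells in control and at least 403-fold in Flcn iΔEC, with 3 counts over the venous class as the floor. The lower ends of the intervals were 259 and 327. These bounds hold for the clusters used here. With classes set by a marker gate, the bound in control was lower. In Flcn iΔEC the gate gave a lower ratio, which was no longer a bound. Lymphatic cells had 0 counts in control and 4 in Flcn iΔEC. The 15 counts in node sinus cells of Flcn iΔEC (10.2 CPM) all came from 1 cell, and 72.0% of the 25 counts in proliferating control cells (13 CPM) came from 1 cell. Node sinus and proliferating cells of Flcn iΔEC (6.85 CPM) did not differ beyond counting error (1.49; 0.708 to 3.06), and high endothelial venule cells had 1 count in control and 2 in Flcn iΔEC.

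Most large artery cells carried Gja5. After each cell was thinned to 5000 UMIs, to put cells of unequal depth on the same footing, a Gja5 UMI was present in 81.5% of the control (68.6 to 90.7) and 81.8% of the Flcn iΔEC cells (73.3 to 88.5). Cells under 5000 UMIs, 2 and 3 of them, were left out. Without thinning the shares were 91.1% and 93.8%. Blood cells, which should lack the gene (Ptprc-positive, with 0 Cdh5), gave 0.232% and 0.132% at that depth, with 531 and 143 cells left out and 0.454% and 0.289% unthinned. Median depths were 14808.5 and 18024 UMIs in the large artery cells, and 7436 and 8237.5 UMIs in the blood cells. Such high shares say little about the level, which was lower in Flcn iΔEC, also in the median cell, at 342 CPM against 592 in control.

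Gja4 had high levels in arterial, capillary and, in control alone, lymphatic cells. Large artery cells had 864 CPM (812 to 917) in the control library, against 949 CPM (914 to 986) in the Flcn iΔEC library. Small artery cells had 621 CPM (582 to 661) and 426 CPM (382 to 472), and capillary cells 335 CPM (271 to 408) and 159.9 CPM (111 to 223). Venous cells lay lower, with 122 (105 to 141) and 99.6 CPM (89.0 to 111). High endothelial venule cells were nearly without it, at 3.51 and 6.24 CPM. Large artery cells thus exceeded venous cells 7.10-fold (6.07 to 8.34) in control and 9.53-fold (8.48 to 10.7) in Flcn iΔEC.

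In lymphatic cells the libraries parted. The control level of Gja4 was 541 CPM (837 counts; 505 to 579), and that of Flcn iΔEC was 41.0 CPM (324 counts; 36.7 to 45.8). Lymphatic cells were thus 4.45-fold above venous cells in control (3.79 to 5.24), and below them in Flcn iΔEC, at 0.412-fold (0.352 to 0.482). With classes set by a marker gate, both values moved outside these intervals on the same side, farther from 1. Counting the Prox1-positive cluster as venous also put the Flcn iΔEC value lower. The mean over single cells moved the control value outside its interval the other way, nearer to 1 but still above it. In the order of control levels, Lyve1-low lymphatic cells came first at 942 CPM, not apart from large artery cells (ratio 1.09; 0.971 to 1.22), then small artery and Lyve1-mid cells. That first place rests on 21 cells, with 20.6% of the counts from 1 of them. The median cell gave the opposite order, 433 CPM against 683 in large artery cells, as did the share with a Gja4 UMI at 5000 UMIs, 71.4% against 90.7%. Further down came capillary, Lyve1-high, node sinus, venous, proliferating and high endothelial venule cells. Neighbours that did not differ beyond counting error were Lyve1-mid and capillary cells, and capillary and Lyve1-high cells. In Flcn iΔEC, large artery cells came first, followed by the Prox1-positive cluster at 451 CPM and small artery cells, which did not differ (1.06; 0.930 to 1.21). All 3 lymphatic clusters lay below venous cells there. Of those lower neighbours, Lyve1-high and Lyve1-low cells, Lyve1-low and proliferating cells, and Lyve1-mid and node sinus cells did not differ beyond counting error.

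Gja1 was the lymphatic connexin of the set and was also found in capillary cells. Lymphatic cells had 504 (469 to 540.4) and 304 CPM (292 to 316) in the control and the Flcn iΔEC library. That was 51.3-fold (30.9 to 92.1) and 69.5-fold (41.3 to 127) above the venous cells of the same library. Capillary cells had 238 CPM (185 to 301) and 165 CPM (115 to 229). At the other end, venous cells had 9.82 CPM from 15 counts and 4.37 CPM from 14 counts, and large artery cells had 0 counts in control (up to 2.46 CPM) and 2.13 CPM from 6 counts in Flcn iΔEC. So the large artery cells that had the most Gja5 had next to no Gja1, and small artery cells had 53.9 and 58.9 CPM of Gja1.

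Among classes, Lyve1-mid lymphatic cells held the most Gja1 in both libraries, at 688 and 362 CPM. In control, Lyve1-high cells followed at 357 CPM, and the next neighbours, capillary and Lyve1-low cells (1.09; 0.786 to 1.5), did not differ beyond counting error, nor did node sinus and proliferating cells, or small artery and high endothelial venule cells. In Flcn iΔEC, Lyve1-low cells came second at 248 CPM, and Lyve1-high, capillary and proliferating cells formed a run without a difference beyond counting error between neighbours. The same held there for node sinus and small artery cells, for the Prox1-positive cluster and high endothelial venule cells, and for venous and large artery cells. At 5000 UMIs, a Gja1 UMI was present in 83.7% of Lyve1-mid cells of control (69.3 to 93.2; median depth 14747 UMIs), against 77.3% of those of Flcn iΔEC (69.8 to 83.6; 24405.5 UMIs), with 0 cells left out. Blood cells had it in 0.139% and 0.307%. Unthinned, these were 93.0% and 98.1% of Lyve1-mid cells and 0.330% and 0.537% of blood cells.

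Gjc1 was found in every named class, between 20.7 and 71.3 CPM in the named control classes and between 28.0 and 74.7 CPM in those of Flcn iΔEC. Venous cells, where Gja1 was scarce and Gja5 absent, had 71.3 CPM (58.6 to 86.0) and 58.7 CPM (50.6 to 67.7), and lymphatic cells had 38.8 CPM (29.6 to 49.9) and 47.8 CPM (43.1 to 52.8). In control, no neighbours in the order of levels differed beyond counting error, from venous cells at the top to high endothelial venule cells at the bottom, although these ends differed (0.291; 0.210 to 0.399). In Flcn iΔEC, proliferating cells came first and Lyve1-high cells last, and only Lyve1-low and Lyve1-mid cells, at 57.6 and 43.0 CPM, differed as neighbours (1.34; 1.09 to 1.66). At 5000 UMIs, venous cells of control had a Gjc1 UMI in 35.7% (24.6 to 48.1) and those of Flcn iΔEC in 24.4% (17.0 to 33.1), with 3 and 4 cells left out, and unthinned in 71.2% and 61.0%. Blood cells gave 0.0928% and 0.132%, and 0.165% and 0.289% unthinned. Venous cells had median depths of 15478 and 19758 UMIs. Cells with many collagen UMIs, outside the endothelium (26 and 28 cells), had 122 and 75.8 CPM of Gjc1.

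**Figure D1:**
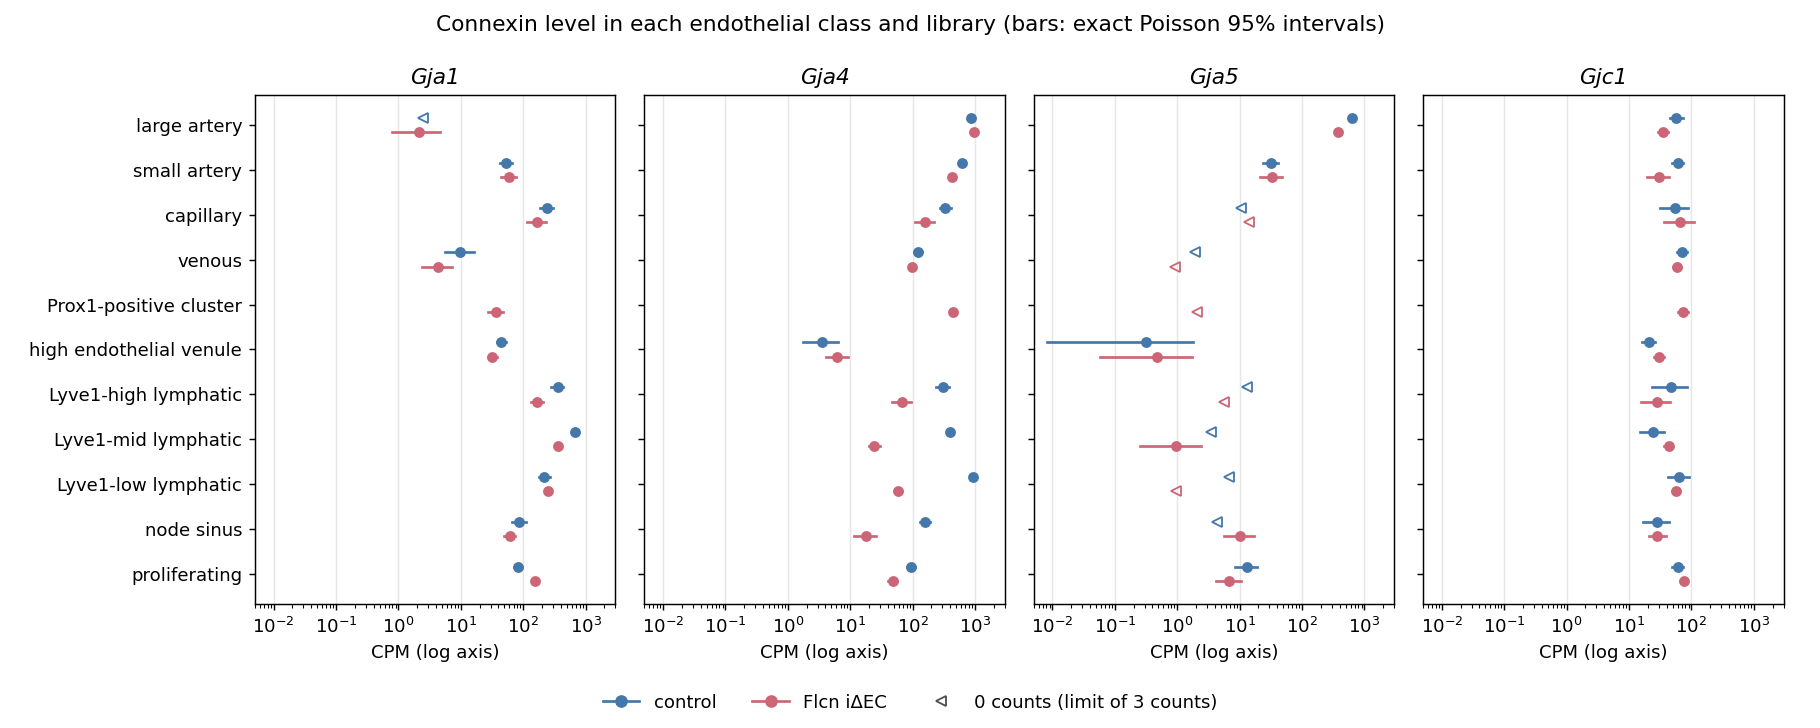
Levels of the 4 connexins in CPM (log axis) in each endothelial class, control in blue and Flcn iΔEC in red, with exact Poisson 95% intervals and open triangles where 0 counts were found. Gja5 is high in large artery cells alone, Gja1 peaks in Lyve1-mid lymphatic cells, Gjc1 is found in all classes, and Gja4 in the lymphatic classes separates the libraries.

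The comparison of Flcn iΔEC with control describes connexin RNA per vessel type, between libraries where sex and genotype cannot be told apart. It was set against all genes with at least 50 counts over both libraries. In large artery cells, 3 of the 4 members had that many counts and 0 of them changed 2-fold, against 5.41% of 7466 genes. Gja5 had a ratio of 0.602 (0.548 to 0.662), Gjc1 of 0.613 (0.447 to 0.844) and Gja4 of 1.10 (1.02 to 1.18). So Gja5 and Gjc1 were lower in Flcn iΔEC and Gja4 was slightly higher, under all 12 alternatives. Fibroblast markers fell here too, from 753 CPM (8 of 10 found, led by Fbn1 at 274 CPM) to 416 CPM (7 of 10, led by Mfap5 at 149 CPM), with Pdgfra and Dpt at 0 in both. Proliferation markers (10 of 10 found) went from 417 CPM, led by Ube2c at 94.4 CPM, to 217 CPM, led by Cenpf at 51.2 CPM, and small artery markers (8 of 8) from 1899 to 1250.5 CPM, led by Sox17 at 566 and 321 CPM. Lymphatic markers rose from 17.2 CPM (8 of 12, with Pdpn, Mmrn1, Sema3d and Gpm6a at 0) to 102 CPM (12 of 12), led by Flt4 at 9.03 and 32.0 CPM. The part of these lists in the large artery ratios was not tested.

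Small artery cells had all 4 members above the minimum and 0 past 2-fold by the count with 1 added to each side, against 5.91% of 6222 genes. Gjc1 was close to that limit at 0.497 (0.306 to 0.780). Gja1 at 1.09 (0.751 to 1.58) and Gja5 at 1.03 (0.617 to 1.68) did not differ beyond counting error, though 8 of the 12 alternatives put Gja1 on the other side of 1 and 2 put Gja5 there. The Gja4 ratio of 0.686 (0.605 to 0.776) reversed, to log2 values of 0.02, 0.24 and 0.29, with at least 4 Cdh5 UMIs, at resolution 1.6 and with classes set by a marker gate. Markers of mural cells moved with these values: their summed level was 424 CPM in control, with 8 of 10 genes found and Tagln the most abundant at 157 CPM, and 43.3 CPM in Flcn iΔEC, with 4 of 10 found and Rgs5 at 0 against 105 CPM. The markers of the class itself, 8 of 8 found and led by Cxcl12 (1733 and 847 CPM), summed to 4155 and 2340.3 CPM. Capillary markers, 12 of 12 found and led by Fabp4 (8159 and 14995 CPM), summed to 13872 and 20458 CPM. Fibroblast markers, led by Fbn1, went from 262 CPM with 7 of 10 found to 74.5 CPM with 3 of 10, where Col1a1, Col1a2 and Col3a1 were at 0. Venous markers went from 937 to 458 CPM (9 and 8 of 10 found; Aplnr 549.6 and 177 CPM), with Ackr1 at 0 in both. Proliferation markers (10 of 10 found) rose from 60.5 CPM, led by Cdk1 at 20.4 CPM, to 186 CPM, led by Birc5 at 40.9 CPM. Lymphocyte markers (10 of 10 found) rose from 116 to 251 CPM, led by Cd74 at 30.9 and 108 CPM. The part of these lists in the small artery ratios was not tested.

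In capillary cells, 1 of 2 members fell past 2-fold, against 7.21% of 1775 genes. This was Gja4, with a ratio of 0.478 (0.313 to 0.712), while the Gja1 ratio was 0.691 (0.446 to 1.05), and both changed sides, to log2 values of 0.61 and 0.62, when the libraries were not integrated. Of the 17 Flcn iΔEC cells, the most heavily loaded gave 41.2% of the 34 Gja4 counts, and for Gja1 37.1% of 35 counts. Other marker lists moved in this small class as well: lymphocyte markers from 207 to 51.7 CPM (8 and 4 of 10 found; Ltb first at 86.3 CPM, then Cd74 at 28.2 CPM), with Cd3e and Ms4a1 at 0 in both, capillary lymphatic markers from 387 to 118 CPM (3 and 4 of 6; Piezo2 376 and 98.7 CPM), with Lyve1 at 0 in both, and high endothelial venule markers from 148 to 339 CPM (4 and 3 of 8; Chst2 96.6 and 226 CPM), with Chst4 and Fut7 at 0 in both. Their part in the capillary ratios was not tested. Venous cells had 0 of 2 members past 2-fold, against 7.76% of 8184 genes: Gja4 had a ratio of 0.818 (0.681 to 0.986), which reversed when classes were set by a marker gate or when the Prox1-positive cluster was counted as venous, and Gjc1 one of 0.823 (0.647 to 1.05). Gja1, with 15 and 14 counts, had a ratio of 0.445 (0.199 to 0.990) and reversed as well when that cluster was added. Marker lists of other cells moved with these venous values. Large artery markers (10 of 10 found, led by Eln) summed to 28460.5 CPM in the control library and 16735 CPM in the other. Capillary markers went from 10088 to 4452 CPM (11 and 9 of 12 found; Fabp4 7931 and 2135 CPM), with Car4 at 0 in both. Fibroblast markers went from 780 to 260.1 CPM (6 and 7 of 10; Fbn1 385 and 169.6 CPM), with Lum at 0 in both, and mural markers from 195 to 73.4 CPM (5 and 4 of 10; Tagln 188 and 54.0 CPM), with Myh11 at 0 in both. Lymphatic markers rose from 262 to 633 CPM (12 and 11 of 12 found; Fxyd6 134 and 239.8 CPM). The class's own markers fell from 4402 to 2557 CPM (9 of 10 found in both; Vwf 2831 and 1483 CPM), with Sele at 0. High endothelial venule markers fell from 166 to 56.5 CPM (6 of 8 found in both). Node sinus markers fell from 138 to 27.8 CPM (7 of 10 found in both). The part of these lists in the venous ratios was not tested. High endothelial venule cells had ratios of 0.720 (0.564 to 0.920) for Gja1 and 1.46 (1.07 to 2.0) for Gjc1. Their own markers, 8 of 8 found and led by Glycam1 (11098 and 3791 CPM), summed to 12959.6 and 5489 CPM. Collecting lymphatic markers, 7 of 7 found and led by Apoe (933 and 3701 CPM), summed to 1264 and 4054 CPM. The part of these lists in the high endothelial venule ratios was not tested.

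Lymphatic cells had 1 of 3 members past 2-fold, against 10.4% of 9604 genes. That member was Gja4, with a ratio of 0.0758 (0.0665 to 0.0863), or 13.2-fold lower in Flcn iΔEC. Gja1 was lower too, at 0.603 (0.556 to 0.655), and Gjc1 did not differ beyond counting error, at 1.23 (0.935 to 1.64), though it was higher within Lyve1-mid cells, at 1.78 (1.13 to 2.95). Over all Cdh5-positive cells together, the Gja4 ratio was 0.669 (0.641 to 0.698) and that of Gja1 was 1.23 (1.15 to 1.31), opposite in direction to Gja1 in lymphatic cells, with 78 of 566 control and 297 of 892 Flcn iΔEC cells being lymphatic.

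**Figure D2:**
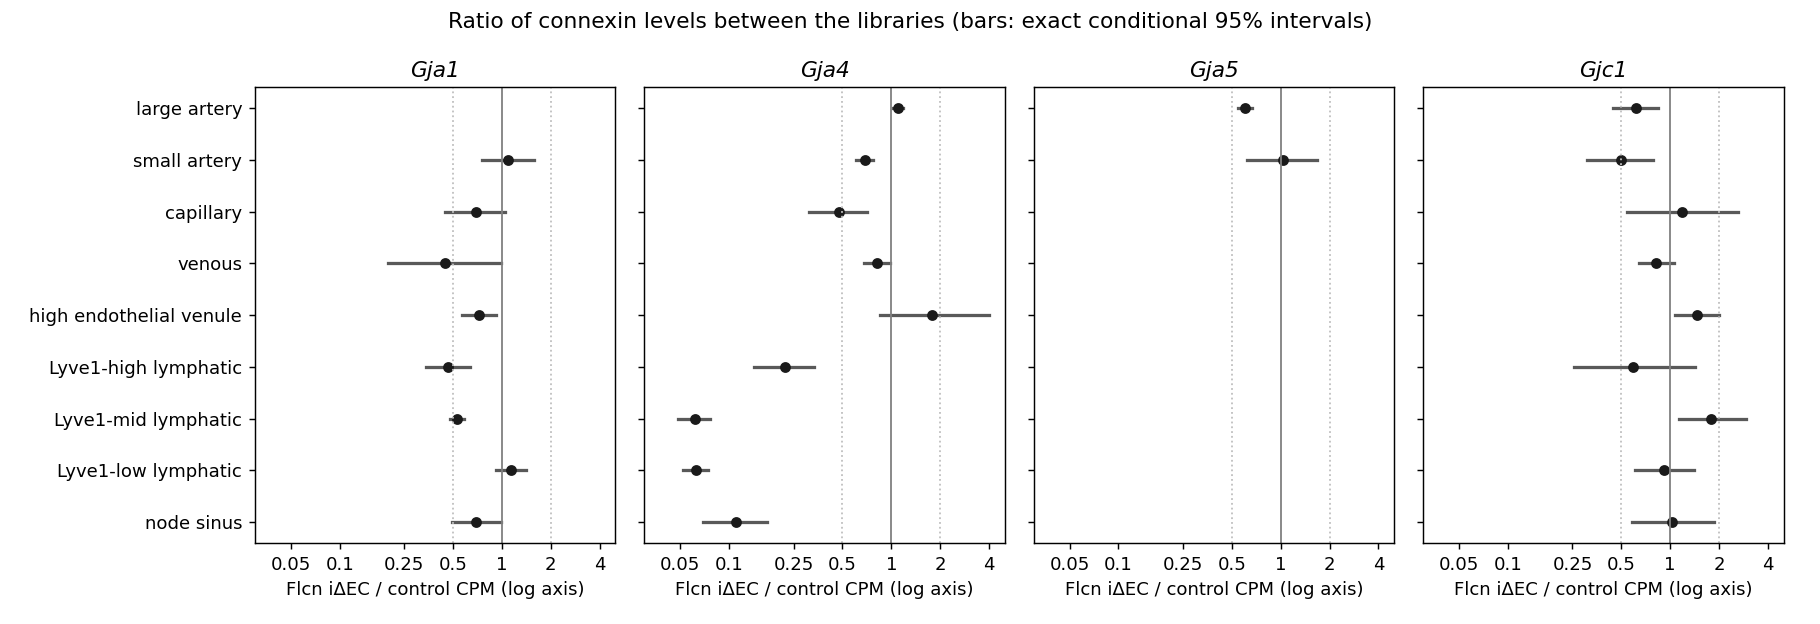
Ratio of CPM in Flcn iΔEC over control for each connexin and class (log axis), with exact conditional 95% intervals, a solid line at 1 and dotted lines at 2-fold either way. Gja4 in the lymphatic and node sinus classes lies far to the left, and the other ratios with enough counts lie nearer to 1.

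Each lymphatic cluster showed the drop of Gja4. Lyve1-mid cells had 401 CPM in control and 24.5 in Flcn iΔEC, a ratio of 0.0613 (0.0487 to 0.0765). Lyve1-low cells had 942 and 58.9 CPM, a ratio of 0.0626 (0.0523 to 0.0746). The drop was smaller in Lyve1-high cells, at 305 and 67.2 CPM, with a ratio of 0.22 (0.143 to 0.333). Node sinus cells, which lie in lymph nodes rather than along the vessels, had 159 and 17.7 CPM, a ratio of 0.111 (0.0695 to 0.172), with 18 cells on the control side. Markers of blood cells moved with it: lymphocyte markers (10 of 10 found) from 3518 to 1773 CPM, led by Cd74 at 1393 and 927 CPM, myeloid markers (7 and 5 of 10, with C1qa at 0 in both) from 433 to 171 CPM, led by Fcer1g at 266 and 97.2 CPM, and platelet markers (5 and 4 of 6, with Ppbp at 0 in both) from 367 to 109 CPM, led by Pf4 at 302 CPM and Itga2b at 49.6 CPM. Proliferation markers (10 of 10 found) fell from 453 to 184 CPM, led by Top2a at 91.3 and 28.5 CPM. Venous markers fell from 979 to 535 CPM (9 and 10 of 10 found). Collecting lymphatic markers went the other way, from 1052 to 1909.9 CPM (7 of 7 found). Large artery markers rose as well, from 2136 to 3303 CPM (10 of 10 found). The part of these lists in the node sinus ratio was not tested. Gja1 behaved otherwise: it was lower in Lyve1-high cells at 0.466 (0.341 to 0.636) and Lyve1-mid cells at 0.527 (0.479 to 0.580), and not apart beyond counting error in Lyve1-low cells at 1.13 (0.915 to 1.41).

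The Gja4 drop was one of many cells and not of a few. The median lymphatic cell had 307 Gja4 CPM in control, with quartiles at 120.1 and 698, and 0 in Flcn iΔEC, with quartiles at 0 and 32.3. At 5000 UMIs, a Gja4 UMI was present in 67.1% of lymphatic cells of control (55.4 to 77.5) but 11.4% of those of Flcn iΔEC (8.06 to 15.6), with 2 and 0 cells left out, and unthinned it was 87.2% and 27.9%. Median depths were 14606.5 and 23371 UMIs. Blood cells had 0.394% and 0.307%, and 0.599% and 0.785% unthinned, so the Flcn iΔEC lymphatic cells stayed above that background. The most heavily loaded cell gave 10.3% of the control and 12.3% of the Flcn iΔEC counts. Lyve1-mid cells with UMIs of both Gja1 and Gja4, in a separate draw of 5000 UMIs, made up 69.8% (53.9 to 82.8) in control and 10.4% (6.06 to 16.3) in Flcn iΔEC, close to the product of the single shares, 68.0% and 10.5%. In large artery cells, where both arterial connexins were common, cells with Gja4 and Gja5 made up 77.8% (64.4 to 88.0) and 72.7% (63.4 to 80.8), against products of 78.9% and 71.0%.

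**Figure D3:**
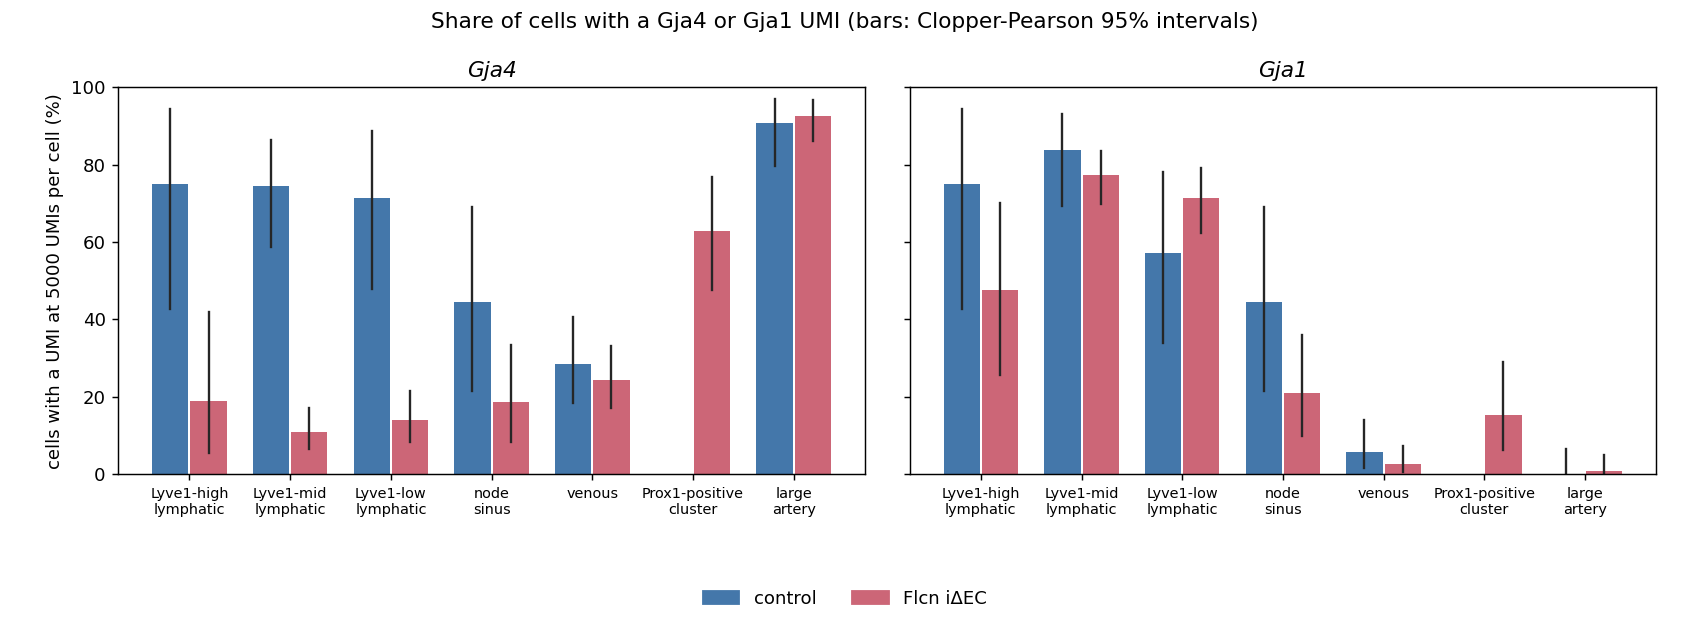
Share of cells with a Gja4 or Gja1 UMI in percent at 5000 UMIs per cell, control in blue and Flcn iΔEC in red, with Clopper-Pearson 95% intervals; control has no Prox1-positive cluster. Gja4 falls from 74.4% to 11% of Lyve1-mid cells and Gja1 is found in 83.7% and 77.3%, although its level there was lower in Flcn iΔEC.

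Marker lists in the lymphatic cells give the setting of this drop. All 12 lymphatic markers were found in both libraries, with sums of 8844 and 9576 CPM and with Ccl21a the most abundant at 3935 and 5051 CPM. Arterial markers summed to 761 CPM with 10 of 12 found and to 679 CPM with 11 of 12, led by Fbln5, with Gkn3 at 0 in both and Sema3g at 0 in control. Node sinus markers differed more, from 387 to 80.3 CPM with 8 of 10 found in both, Marco and Ccl20 at 0, and Ackr4 (265 CPM) and Ptx3 (48.8 CPM) most abundant. Capillary markers went from 3281 to 2047 CPM with 11 and 12 of 12 found, Fabp4 most abundant at 1948 and 947 CPM and Car4 at 0 in control. The part of these differences in the Gja4 ratio was not tested.

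The Prox1-positive cluster, found in Flcn iΔEC alone except with the marker gate, had a connexin pattern unlike that of the venous cells. Gja4 stood at 451 CPM (654 counts; 417 to 487), Gja1 at 36.6 CPM (53 counts; 27.4 to 47.8), Gjc1 at 73.8 CPM (107 counts; 60.5 to 89.2) and Gja5 at 0 counts. Against the venous cells of its library, 2 of 3 members rose past 2-fold and 0 fell, where 9.11% of 8024 genes passed 2-fold either way. Gja4 was 4.53-fold higher (3.96 to 5.19), Gja1 8.36-fold (4.57 to 16.3), and Gjc1 did not differ beyond counting error at 1.26-fold (0.982 to 1.6). Against lymphatic cells of Flcn iΔEC, Gja4 was 11-fold higher (9.61 to 12.6) and Gja1 was lower, at 0.120-fold (0.0899 to 0.158). Large artery cells had more Gja4, leaving the cluster at 0.475-fold (0.436 to 0.518), and the absence of Gja5 sets it at most at 0.00548-fold of their Gja5 level. The cluster thus had much Gja4 without the Gja5 of large arteries and with little of the Gja1 of lymphatic vessels. At 5000 UMIs, 63.0% (47.5 to 76.8) of its cells had a Gja4 UMI, against 24.4% (17.0 to 33.1) of venous cells, with 1 and 4 cells left out, and 74.5% against 41.5% unthinned. Blood cells of that library had it in 0.307%. Median depths were 24754 and 19758 UMIs.

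**Figure D4:**
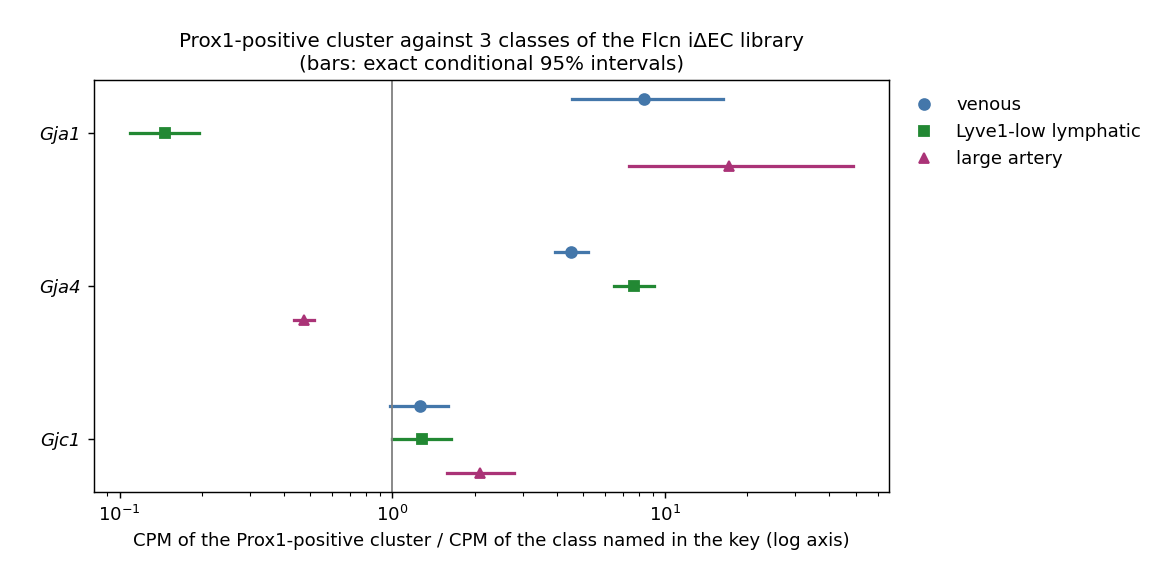
CPM of Gja1, Gja4 and Gjc1 in the Prox1-positive cluster over that in venous (circles), Lyve1-low lymphatic (squares) and large artery cells (triangles) of the Flcn iΔEC library, on a log axis with exact conditional 95% intervals. Gja4 lies above venous and Lyve1-low cells and below large artery cells; Gja5 had 0 counts in the cluster and is not drawn.

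Red cell markers marked this cluster: 7 of 7 were found, summing to 11071 CPM with Hbb-bs at 5592 CPM, against 58.7 CPM in the venous cells, where Alas2 and Slc4a1 were at 0. With hemoglobin, mitochondrial and ribosomal protein genes taken out of the CPM, the log2 ratio of Gja4 over venous cells was 2.17, against 2.18 with them. Lymphatic markers summed to 1918 CPM in the cluster with 12 of 12 found and Fxyd6 at 1063 CPM, to 633 CPM in venous cells with 11 of 12 found and Pdpn at 0, and to 9576 CPM in lymphatic cells. Prox1, Pdpn and Lyve1, by whose levels the cluster was set apart, are on this list, with Prox1 alone at 506 CPM, so where the sum of the cluster lies is partly set by that choice. In Gja4 the cluster was above both classes of its library.

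Prox1 was also found among the cells of the venous class. With the line drawn at 200 Prox1 CPM per cell, a value chosen after seeing the data, 21 Flcn iΔEC and 4 control venous cells lay above it, and 8 and 3 cells lay between 150 and 250 CPM. Gja4 in the 21 cells was at 63.7 CPM (47.8 to 83.1), against 113 CPM (99.4 to 127) in the 102 below the line, a ratio of 0.566 (0.414 to 0.76). The median cell went the other way, at 31.4 CPM above the line and 0 below it, so no order of Gja4 between these cells can be given. Gja1 had 8 and 6 counts in these groups, a ratio of 3.70 (1.13 to 12.9), and Gjc1 a ratio of 1.43 (1.04 to 1.95). The 4 control cells had 241 CPM of Gja4 from 16 counts (138 to 391), against 116 CPM in the other 69 cells, a ratio in the other direction of 2.07 (1.16 to 3.46). Below the line, Gja4 did not differ between the libraries beyond counting error, at 0.968 (0.795 to 1.18), while Gjc1 at 0.726 (0.556 to 0.95) and Gja1 at 0.287 (0.0893 to 0.808), from 6 and 13 counts, were lower in Flcn iΔEC.

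Of 19 other connexins and pannexins, all 19 are in the tables and 8 had 0 counts in Cdh5-positive cells. The pannexin Panx1, which forms channels in the cell membrane, had 411 counts. In lymphatic cells it went from 15.5 CPM in control to 6.46 in Flcn iΔEC (0.416; 0.252 to 0.707), and blood cells had it at 16.7 and 16.1 CPM, a level that the lymphatic cells of both libraries did not exceed. The connexins Gjb2 and Gjd4 were scarce, with 41 and 20 counts. Gjb2 reached at most 3.83 CPM in a named class, and Gjd4 less.

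Genes around the connexins were followed through 3 further lists, of which those with at least 50 counts are counted. Among connexin partners and trafficking genes, which anchor, modify or remove gap junctions, 1 of 16 fell past 2-fold and 0 rose in lymphatic cells, with a median log2 ratio of -0.48, against -0.21 over all genes. The gene was Smurf2, a ubiquitin ligase, at 0.437 (0.335 to 0.574). Large artery cells had 0 of 16 past 2-fold (median -0.20, all genes -0.11), and capillary cells 0 of 10 (-0.08 and -0.05). In small artery cells 1 of 16 rose, the secreted protein gene Nov at 2.71 (1.62 to 4.59; medians -0.12 and -0.08). In venous cells 2 of 17 fell (medians -0.11 and -0.09), Nov at 0.159 (0.0908 to 0.268) and the caveolin Cav1 at 0.444 (0.412 to 0.478). The Prox1-positive cluster had 1 of 15 above venous cells, the actin-binding Dbn1 at 2.32 (1.92 to 2.82; medians 0.05 and 0.01). Over all genes, 5.41% (large artery), 5.91% (small artery), 7.21% (capillary), 7.76% (venous), 10.4% (lymphatic) and 9.11% (Prox1-positive cluster over venous) passed 2-fold, so the partners were near the background.

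Valve genes were chosen because Gja4 and Gja1 take part in valves. In lymphatic cells, 3 of 13 fell and 1 rose, with a median log2 ratio of -0.45, against 10.4% past 2-fold and a median of -0.21 over all genes. Those that fell were Efnb2 at 0.187 (0.161 to 0.218), from 229.6 to 42.9 CPM, the transcription factor Foxc2 at 0.306 (0.263 to 0.357), from 180.4 to 55.2 CPM, and fibronectin (Fn1) at 0.389 (0.366 to 0.413). The gene that rose was Neo1, a receptor, at 2.41 (2.07 to 2.82). Large artery and small artery cells had 0 of 9 past 2-fold each (list medians -0.23 and -0.09), and capillary cells 0 of 2 (0.21). In venous cells, 3 of 12 rose and 0 fell (median -0.21; all genes 7.76% and -0.09): Prox1 at 3.02 (2.37 to 3.90), Nfatc1 at 3.08 (2.41 to 3.99) and Neo1 at 10.0 (5.76 to 19.1). The Prox1-positive cluster had 6 of 12 above venous cells and 0 below (median 0.99; all genes 9.11% and 0.01), among them Prox1, whose level served to set the cluster apart and so is no finding. The 5 largest were Neo1 at 5.79, Cldn11 at 4.85, Prox1 at 3.32, Foxc2 at 2.71 and Nfatc1 at 2.64.

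Flow and Notch genes, which act upstream of vascular connexins, were the last list. In large artery cells, 2 of 17 fell and 0 rose (median -0.46), against 5.41% past 2-fold and a median of -0.11 over all genes. They were the Notch ligand Jag1 at 0.337 (0.30 to 0.378) and the flow-responsive Klf2 at 0.431 (0.412 to 0.451), from 3068 to 1323 CPM. The shares over all genes were 5.91% in small artery, 7.21% in capillary and 7.76% in venous cells. In small artery cells 1 of 14 fell, Sox18 at 0.411 (0.354 to 0.476; median -0.16), and in capillary cells 2 of 10 rose, Hey1 at 2.18 (1.48 to 3.24) and Hes1 at 2.92 (2.21 to 3.89; median -0.11). In venous cells 3 of 15 rose and 1 fell (median -0.29): Dll4 at 2.62 (1.41 to 5.33) with Prox1 and Nfatc1, which are on this list as well, and Klf2 at 0.438 (0.414 to 0.463). Lymphatic cells had 3 of 15 that fell (median -0.59; all genes 10.4% and -0.21): Foxc2 again, Foxc1 at 0.458 (0.357 to 0.593) and Notch1 at 0.476 (0.411 to 0.552). The Prox1-positive cluster had 4 of 15 above venous cells (median 0.40; all genes 9.11% and 0.01), Prox1 again among them by the choice of the cluster: Klf4 at 2.18 (2.03 to 2.34) with Nfatc1 and Foxc2. Beside these lists, the 3 members tested in lymphatic cells had a median of -0.73 (all genes -0.21) and those in large artery cells one of -0.71 (all genes -0.11).

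The genes whose levels ran most like each member were sought among 11755 genes by Pearson's r of log2(CPM + 10) across the 10 classes found in both libraries, taking the lower r of the pair. These r values describe classes that share libraries and differ in depth. The genes were picked by them out of many over few classes, so their height is no finding. They also compare shape and not size: in control, Bzw1 ran from 199.6 CPM in venous to 269.8 CPM in Lyve1-mid cells. Gja1 ran from 0 in large artery to 688 CPM in Lyve1-mid cells. For Gja5 they were Serpinf1 (r 0.981 in control and 0.985 in Flcn iΔEC), Gm13111, Gper1, Tmem178 and Sdcbp2. Serpinf1 had 466 and 312 CPM in large artery cells, lower in Flcn iΔEC as Gja5 was. For Gja4 they were Efnb2 (0.919 and 0.905), Dcaf6, Pkd1, Tmem59 and Vps36. Efnb2, the ephrin of arterial endothelium, thus followed Gja4 in both libraries: it had 367 and 313 CPM in large artery cells, and 282 and 44.1 CPM in Lyve1-mid lymphatic cells. It did not follow Gja4 into the Prox1-positive cluster, where it had 49.0 CPM, against 65.3 CPM in venous cells. For Gja1 they were Emid1 (0.916 and 0.919), Vav3, Flt4 (0.907 and 0.851), Hic1 and Bzw1, of which Flt4 is on the list of lymphatic markers. For Gjc1 they were 5031439G07Rik (0.928 and 0.829), Stub1, Cnep1r1, Kif26a and Npat. Between members, Gja4 and Gja5 had r of 0.388 in control and 0.742 in Flcn iΔEC, and Gja1 and Gja4 had 0.15 and -0.418.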

How the data were processed

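The values are UMI counts per gene and cell that the authors deposited as made by Cell Ranger 3.0 on mm10 (the matrix headers give 3.0.1), without normalization, for 2 libraries of mesenteric CD31+ cells. No cell was removed, and called doublets (Scrublet in scanpy 1.11.5; 142 control cells and 37 Flcn iΔEC cells, 7 and 3 of them Cdh5-positive) were kept. Cells with at least 2 Cdh5 UMIs were clustered with Seurat 5.3.0 in R 4.3.3: counts scaled to 10000, 2000 variable features without connexins and pannexins, anchor integration, 30 dimensions and Louvain resolution 0.8. A cluster took the name of the marker list with the largest share of genes at least 2-fold up, given 3 such genes. The Prox1-positive cluster was set apart by Prox1 at or above 0.5, and Pdpn and Lyve1 at or below 0.1, of the lymphatic level. Counts were summed per class and library and scaled to CPM (pandas 2.3.3, numpy 2.4.6 and, for intervals, scipy 1.17.1, run under Python 3.11.15, figures by matplotlib 3.10.9). Levels have exact Poisson, ratios exact conditional and shares Clopper-Pearson 95% intervals. Calls past 2-fold and medians use 1 count added to each side, and ratios in the text use none. Genes needed 50 counts over both sides for a call, and 100 for likeness. The steps were tested on simulated counts.

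Named genes are the 4 members, the 5 of most like pattern for each, other connexins and pannexins with at least 20 counts (not every one is described), listed genes past 2-fold (up to 5 each way), Flcn and sex-linked genes. The members and lists were chosen with earlier results of these data known. The 6 motifs were chosen after the levels were seen. Alternatives changed the Cdh5 minimum, cell filter, doublets, integration, resolution, class rule, CPM base, weighting of cells, thinning, likeness settings and count minimum.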

Additional observations from a re-analysis of the deposited data

Results flagged for a closer look

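Some members moved in opposite directions in different classes. Gja4 had a log2 ratio of Flcn iΔEC over control of 0.14 in large artery cells, the only class of those with an interval clear of 0 where it was higher. It was lower in lymphatic (-3.72) and node sinus cells (-3.17), and in small artery (-0.54), capillary (-1.07) and venous cells (-0.29), these last reversing under some of the alternatives. Gjc1 was lower in large artery (-0.71) and small artery cells (-1.01) and higher in high endothelial venule cells (0.54) and in Lyve1-mid lymphatic cells (0.83), these 2 not run under the alternatives. Within libraries, the log2 ratio of Gja4 in lymphatic over venous cells was 2.15 in control and -1.28 in Flcn iΔEC. With 1 library per group, none of these differences between classes or libraries was tested, and sex and genotype cannot be told apart in them.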

How the results depend on the processing

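No paired analysis was possible because the libraries pool cells of different mice and give no link between them. Values here are log2 ratios unless named otherwise. Of 377 comparisons of 33 ratios under 12 alternatives, 333 stayed within the interval, 37 moved outside it and 7 whose interval was clear of 0 reversed, and 8 ratios never moved. Among those within an interval that holds 0, Gja1 and Gja5 in small artery cells and Gjc1 in capillary cells changed sign under some alternatives. Counting the Prox1-positive cluster as venous and leaving out cells with at least 2 Ptprc UMIs were chosen after seeing the data. Gja4 in lymphatic cells, Flcn iΔEC over control, stayed between -3.78 and -3.40 under all 12 alternatives. At least 1 Cdh5 UMI, a CPM base lacking hemoglobin, mitochondrial and ribosomal protein genes, and leaving out Ptprc moved no ratio that had a value.

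For Flcn iΔEC over control, a minimum of 4 Cdh5 UMIs gave 0.02 for Gja4 (reversed) and -0.35 for Gjc1 in small artery cells and -1.21 for Gjc1 in capillary cells. Keeping cells of 1000 UMIs or more with a mitochondrial share of 10% or less gave -0.61 for Gja1 and -3.40 for Gja4 in lymphatic cells. Without doublets, Gja4 in small artery cells was -0.09. Without integration, small artery cells gave -1.58 for Gja1 and -0.19 for Gja4, and capillary cells 0.62 for Gja1 and 0.61 for Gja4, both with the opposite sign. Resolution 0.4 gave -0.21 for Gja4 in small artery cells, and 1.6 gave 0.24 (reversed) and -1.41 for Gja1. The marker gate gave 0.47 for Gja4 and -0.22 for Gja5 in large artery cells, -0.77 for Gja1, 0.29 for Gja4 (reversed) and 0.97 for Gja5 in small artery cells, -0.41 for Gja4 in capillary cells and 1.46 for Gja4 in venous cells (reversed). The mean over single cells gave 0.25 for Gja4 in large artery and -0.73 in venous cells. With the Prox1-positive cluster counted as venous, venous cells gave 0.55 for Gja1 and 0.78 for Gja4, both reversed.

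For large artery over venous cells, 4 Cdh5 UMIs gave 3.04 for Gja4 in Flcn iΔEC. The gate gave, in control, -0.51 for Gja1, 3.74 for Gja4, at least 6.42 for Gja5 and 0.25 for Gjc1, and in Flcn iΔEC 2.75 for Gja4 and 6.40 for Gja5. The mean over cells gave 2.39 for Gja4 and -0.85 for Gjc1 in control. Counting the cluster as venous gave -2.75 for Gja1 and 2.18 for Gja4 in Flcn iΔEC. For lymphatic over venous cells, the gate gave 3.58 for Gja4 in control, and -1.58 for Gja4 and -0.01 for Gjc1 in Flcn iΔEC. The mean over cells gave 1.85 for Gja4 in control, and the cluster counted as venous gave 4.4 for Gja1 and -2.35 for Gja4 in Flcn iΔEC. Gja4 in the Prox1-positive cluster over venous cells was 1.98 with 4 Cdh5 UMIs, 1.48 with the gate and 2.42 with the mean over cells. For all these moves the cause was not tested.

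Shares with a UMI follow the depth by construction. Thinned to 2000 UMIs, the shares in control and Flcn iΔEC were 52.7% and 48.7% for Gja5 and 67.3% and 75.2% for Gja4 in large artery cells, 65.1% and 54.5% for Gja1 in Lyve1-mid cells and 16.4% and 8.20% for Gjc1 in venous cells. Unthinned, those outside their intervals were 91.1%, 93.8%, 98.2% (Gja4, Flcn iΔEC), 98.1% (Gja1, Flcn iΔEC), 71.2% and 61.0%. Of the 5 genes most like Gja1, Gja4 and Gja5, 3 each remained with a pseudocount of 1 CPM, and 2 of those most like Gja5 with a minimum of 20 counts. No capillary class came out at resolution 0.4 or with 1 Cdh5 UMI, the control library kept 1 venous cell without integration, and there the ratios that need these classes have no value, nor have those of the Prox1-positive cluster once it is merged. With a minimum of 200 counts, 3.30% of genes passed 2-fold in small artery cells.

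Depth limits the rarer values. Gja1 in venous cells rests on 15 and 14 counts and Gjc1 in capillary cells on 16 and 14. The capillary and Lyve1-high classes have under 30 cells in each library. A library apiece, made of 3 pooled mice, sets no bound on variation between mice.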

Other observations

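In the unnamed clusters, led by genes of blood cells, Gja4 had 144 CPM in 75 control cells and 136 CPM in 71 Flcn iΔEC cells, and Gja5 had 24.2 and 54.2 CPM. Their endothelial type could not be named.

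In a draw of 5000 UMIs per cell, all 11 of 109 small artery control cells with Gja5 also had Gja4, which 62 cells had. That is 10.1% (5.15 to 17.3), against a product of 5.74%. In Flcn iΔEC it was 3 of 3 cells among 42, or 7.14% (1.5 to 19.5) against 3.74%.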
